A study of Mus musculus with 22 samples.

Results

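The 39 Hox genes of the mouse (11 in cluster A, 10 in B, 9 in C and 9 in D) were followed in fibroblasts sorted from back skin. They were taken as every row of the count table whose Ensembl gene ID maps to a symbol made of Hoxa, Hoxb, Hoxc or Hoxd and a number, 39 of 55414 rows. The rule used names alone and no measured value, though it was set with earlier results of these data known. All mice were operated on: a path was opened under the back skin from a cut near the tail to the neck. In the expander group (EXP) a hydrogel expander was stitched in place near the neck, and in the control group (CTRL) none was inserted. Skin was taken 1, 2 or 4 days later, and live cells negative for CD31, CD45, CD117 and EpCAM and positive for CD34 and PDGFRα were sorted for bulk RNA sequencing. There were 4 CTRL and 5 EXP libraries on day 1, 3 and 3 on day 2, and 4 and 3 on day 4. Strain, sex, age and the exact place along the back from which skin was cut are not given in the sources used here, and no allele or transgene is named for any group.

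Hox genes encode homeodomain transcription factors and lie in 4 clusters. Their order along each cluster matches the order of the body levels at which they are switched on in the embryo, from paralog group 1 at the head end to group 13 at the tail and limb ends. Skin fibroblasts keep much of this code in the adult, and cells grown from different body sites can be told apart by it. HOX proteins bind DNA together with partners of the TALE family (PBX, MEIS and PREP proteins), retinoic acid and CDX proteins switch clusters on in the embryo, and Polycomb and Trithorax proteins keep genes of the clusters off or on afterwards.

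Library totals ranged from 21461294 to 30210204 counts. Levels are given as CPM, counts per 1000000 of the library total after TMM scaling, and 3 counts, the floor used for detection, stood for 0.0804 to 0.157 CPM. The 9 fibroblast markers summed to between 68257 and 408487 CPM per library, against at most 165 CPM for 10 leukocyte markers, 60.4 CPM for 11 keratinocyte markers, 13.8 CPM for 8 endothelial markers, 501.8 CPM for 7 adipocyte markers and 646 CPM for 8 markers of the dermal papilla, the fibroblast cluster at the base of the hair follicle. The fibroblast markers had the highest sum of all marker lists in every library. A set of 192 genes followed Rnf10 in log2 CPM once each group's mean was subtracted (correlation of at least 0.9), and it separated the libraries. Their mean log2 CPM was high (4.83 to 5.48) in CTRL 1, 2 and 3 and EXP 1 and 2 of day 1. The same held for CTRL 3 and 4 of day 4, and the mean was lower in all other libraries (2.47 to 4.13). The labels give no reason for this split, and calls of days 1 and 4 were also fitted within 1 side of it (the high side on day 1, the low side on day 4). Within each day, EXP was set against CTRL with edgeR's quasi-likelihood test in 1 fit of all 22 libraries over 17554 genes, and a gene was called at a Benjamini-Hochberg adjusted p under 0.05. In bulk RNA, fewer cells of one type and less RNA per cell cannot be told apart.

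The fibroblasts carried a Hox code of the middle of the body axis. Of the 39 genes, 27 exceeded 3 counts in at least 1 library, 6 did so in all 22 libraries (Hoxa7, Hoxc4, Hoxc5, Hoxc6, Hoxc8 and Hoxd8), and 12 stayed at 3 counts or fewer everywhere, 8 of them with no count at all. Paralog groups 4 to 8 held 91.1% of the summed Hox CPM on average (86.4% to 97.4% over libraries), groups 9 to 13 held 7.70% (1.44% to 12.1%) and groups 1 to 3 held 1.18%. None of the 8 anterior genes passed the filter on low counts, and their highest value in any library was 0.779 CPM. The 9 genes of groups 11 to 13, which pattern distal limb, tail and genitalia and, for Hoxc13, the hair shaft, gave 6 counts in all over the 22 libraries and at most 2 in any one.

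Cluster C dominated. It held 72.9% of the summed Hox CPM (55.4% to 82.3% over libraries), cluster D 17.0%, cluster A 7.81% and cluster B 2.27%. Per kilobase of exon, the highest mean level was that of Hoxc8, a gene of thoracic and forelimb levels, at 6.69 CPM per kb. Hoxc5 followed at 2.36, Hoxd8 at 2.20 and Hoxc6 at 1.61 CPM per kb. Hoxc4 stood at 0.988, Hoxa7 at 0.857, Hoxc9 at 0.641 and Hoxd9 at 0.635 CPM per kb, and the ranges over libraries of neighbours in this order overlapped. Hoxa5 (0.288), Hoxa9 (0.0955) and Hoxc10 (0.0810 CPM per kb) were lower still. The map of the clusters shows this as one block of signal in the middle of clusters C and D with empty ends on the posterior side.

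**Figure D1:**
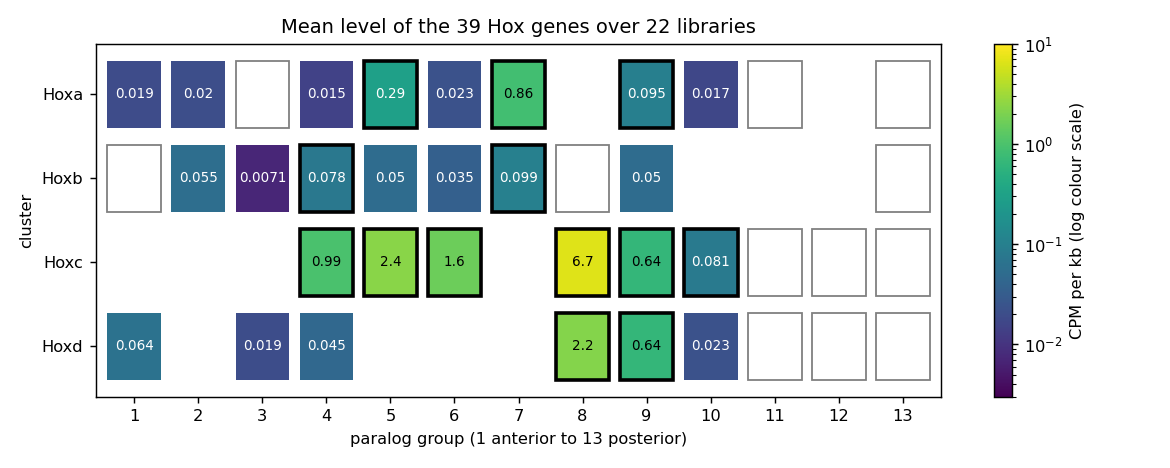
Mean level of each Hox gene over the 22 libraries, by cluster (rows) and paralog group (columns), as CPM per kb of exon on a log colour scale with the value written in. White boxes are genes with 3 counts or fewer in every library, black frames mark the 13 genes tested, and empty places hold no gene; Hoxc8 stands highest at 6.69 CPM per kb.

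The filter on low counts left 13 Hox genes to test: Hoxa5, Hoxa7, Hoxa9, Hoxb4, Hoxb7, Hoxc4, Hoxc5, Hoxc6, Hoxc8, Hoxc9, Hoxc10, Hoxd8 and Hoxd9. The other 26 were not tested, 14 of them with more than 3 counts in some library. In the GENCODE M21 annotation 16 of the 39 genes share exon bases with another gene, among the tested genes Hoxa7 (20.4% of its exon length, opposite the antisense gene Hoxaas3), Hoxa9 (1.52%, Mir196b), and Hoxc5 and Hoxc10 with each other (5.37% and 8.70%). The strand setting of the authors' counting is not given in the sources used here, so reads in those stretches may be split or lost.

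Hox RNA was lower with the expander on day 1. Summed over the 39 genes it was 67.4, 63.3, 71.3 and 72.2 CPM in the 4 CTRL libraries (68.6 ± 4.10, SD) and 33.2, 34.3, 44.3, 32.8 and 31.6 CPM in the 5 EXP libraries (35.2 ± 5.17, SD). No EXP library reached the lowest CTRL library. On day 2 the sums were 60.5, 36.4 and 66.9 CPM in CTRL and 33.3, 48.1 and 37.5 CPM in EXP, and the groups overlapped. On day 4 they were 43.3, 45.6, 53.7 and 53.4 CPM in CTRL against 26.0, 35.0 and 39.05 CPM in EXP, again without overlap. That day 4 gap depended on TMM scaling. By library totals alone, EXP 3 (1094 of 30210204 counts) lay just above CTRL 1 (896 of 24833235 counts), so the groups overlapped.

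On day 1, 5 of the 13 tested genes were called: Hoxc5, Hoxd9, Hoxa7, Hoxd8 and Hoxc8, all lower in EXP, where 28.6% of all genes tested were called and 14.7% were called lower. On day 2, 1 of 13 was called (Hoxc10, lower), against 13.4% of all genes, 5.71% lower and 7.72% higher. On day 4, 3 of 13 were called (Hoxd9 and Hoxd8 lower, Hoxc10 higher), against 22.5% of all genes, 9.66% lower and 12.8% higher. Hoxc10 passed the filter on low counts only through CTRL of day 2 and EXP of day 4, the groups in which it was high. The median log2 fold change of the 13 genes was −1.13, −0.85 and −0.60 on days 1, 2 and 4, and 12, 12 and 10 of the 13 estimates were negative, beside medians of 0.02, 0.02 and 0.03 and 49.1%, 48.8% and 48.5% negative over all genes tested. Every EXP library lay below every CTRL library for 5 Hox genes on day 1, for 2 on day 2 (Hoxc4 and Hoxd9) and for 5 on day 4 (Hoxa5, Hoxc5, Hoxc6, Hoxd8 and Hoxd9), against 12.2%, 18.4% and 11.8% of all genes. No tested Hox gene lay wholly above CTRL on any day, against 11.7%, 20.9% and 13.8% of all genes.

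**Figure D2:**
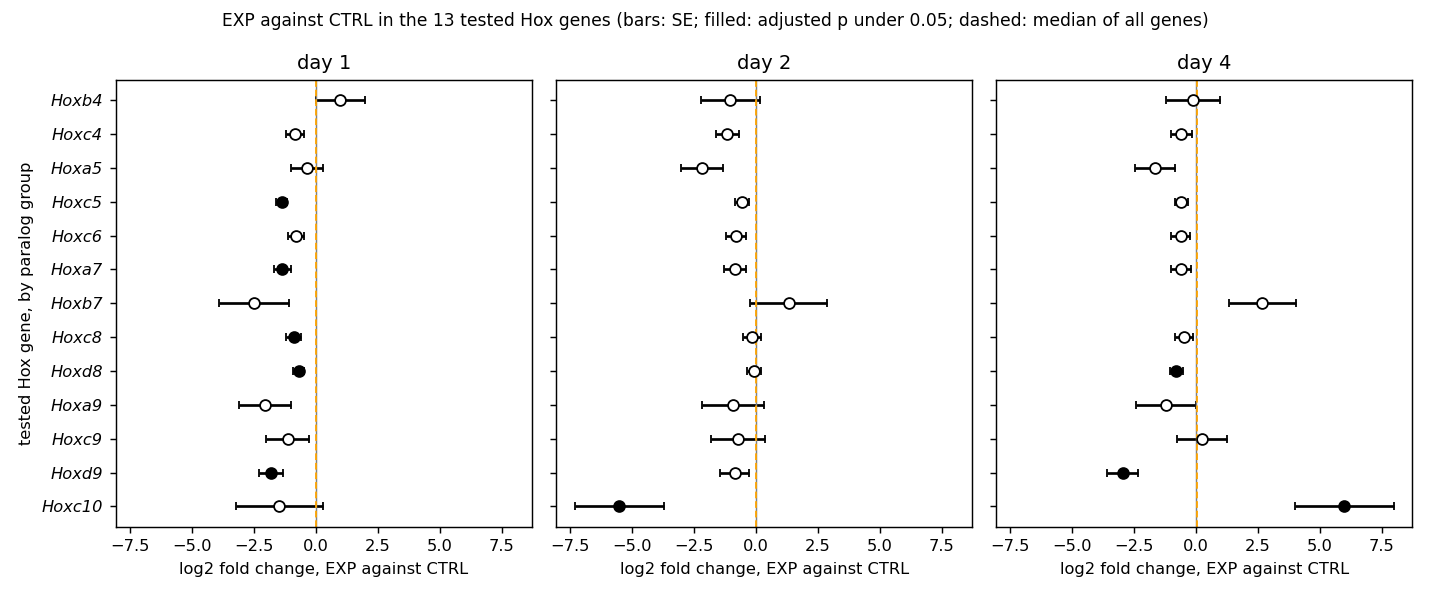
Log2 fold change of EXP against CTRL (x axis) for the 13 tested Hox genes ordered by paralog group (y axis), on days 1, 2 and 4, with bars of 1 standard error, filled points for adjusted p under 0.05 and a dashed line at the median of all genes. On day 1 the estimates lie left of 0 except that of Hoxb4, and on days 2 and 4 the Hoxc10 estimates lie far out on opposite sides.

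Hoxc5, which acts at neck and upper thoracic levels in the embryo, gave the lowest p of the Hox genes on day 1. It stood at 11.04, 11.7, 12.2 and 12.6 CPM in CTRL and at 4.54, 2.95, 3.96, 6.14 and 5.36 CPM in EXP on that day. The log2 fold change was −1.37 (SE 0.23, adjusted p = 0.0002176), and every EXP library lay below every CTRL library. On day 2 it measured 9.90, 6.53 and 10.6 CPM in CTRL against 6.96, 4.33 and 7.01 CPM in EXP, with overlap and no call (−0.56, SE 0.28, adjusted p = 0.1989). On day 4 it measured 7.54, 7.20, 7.12 and 7.74 CPM in CTRL against 3.19, 5.03 and 6.57 CPM in EXP, without overlap and without a call (−0.59, SE 0.27, adjusted p = 0.1161). The day 1 call held with each day 1 library left out (adjusted p up to 0.0009259) and among the day 1 libraries on the high side of the Rnf10 split (−1.68, adjusted p = 0.0121).

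Hoxa7, a member of the thoracic part of cluster A, was 4.61, 2.75, 2.83 and 3.98 CPM in CTRL and 1.68, 1.13, 2.43, 1.08 and 0.656 CPM in EXP on day 1. The groups did not overlap, and the log2 fold change was −1.34 (SE 0.36, adjusted p = 0.007624). It held with each library left out, and on the high side of the split the estimate was −1.32 with adjusted p = 0.09032. On day 2 Hoxa7 measured 3.68, 2.35 and 4.54 CPM in CTRL against 1.09, 2.75 and 2.05 CPM in EXP, and on day 4 it measured 2.37, 2.27, 3.77 and 2.73 CPM against 1.63, 2.57 and 1.28 CPM. Both days showed overlapping groups and no call. Hoxaas3, its antisense neighbour, had a mean of 0.172 CPM and was called on no day.

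Hoxd9 was lower in EXP on day 1 and again on day 4. This gene of lower thoracic and lumbar levels measured 3.42, 3.94, 2.93 and 1.49 CPM in CTRL and 1.43, 0.888, 0.726, 0.541 and 0.620 CPM in EXP on day 1 (log2 fold change −1.80, SE 0.47, adjusted p = 0.007214). On day 4 it measured 0.580, 1.03, 2.97 and 1.86 CPM in CTRL and 0.188, 0.0347 and 0.393 CPM in EXP (−2.96, SE 0.63, adjusted p = 0.003441). These were 12 to 71 counts in CTRL and 1 to 11 in EXP, the lowest under the floor of 3 counts, so the day 4 estimate rests on few counts. The groups did not overlap on either day, nor on day 2, when CTRL gave 1.39, 1.83 and 1.17 CPM and EXP 1.06, 0.669 and 0.682 CPM (−0.86, SE 0.59, adjusted p = 0.3647). Both calls held with each library of their day left out. The 2 highest CTRL libraries of day 4 were the 2 on the high side of the split. Among the low-side libraries of day 4 alone the estimate was −1.96 (adjusted p = 0.3298), and with day 4 libraries fitted alone it was −2.99 (adjusted p = 0.06486).

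Hoxd8, its neighbour and the D gene with the highest level, measured 9.02, 7.62, 7.40 and 7.05 CPM in CTRL and 3.46, 3.35, 6.17, 5.60 and 5.54 CPM in EXP on day 1 (−0.69, SE 0.24, adjusted p = 0.03403). The day 2 groups were interleaved, at 5.23, 7.62 and 6.87 CPM in CTRL and 6.96, 7.86 and 3.79 CPM in EXP. On day 4 CTRL gave 6.04, 6.22, 6.45 and 8.83 CPM and EXP 4.72, 3.30 and 3.93 CPM (−0.79, SE 0.28, adjusted p = 0.04478). The groups did not overlap on days 1 and 4. The day 1 call was lost without CTRL 1, 2 or 3 or EXP 1 or 2 (adjusted p up to 0.09782), and the day 4 call was lost in every leave-one-out fit but that without CTRL 1 (adjusted p up to 0.1649).

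Hoxc8, the Hox gene with the highest level, was 23.0, 25.2, 28.3 and 34.8 CPM in CTRL and 15.3, 16.6, 20.8, 12.3 and 10.6 CPM in EXP on day 1, without overlap (−0.88, SE 0.31, adjusted p = 0.03766). The call was lost without CTRL 2, 3 or 4 or EXP 1, 4 or 5 (adjusted p up to 0.1060). On day 2 CTRL gave 25.6, 7.15 and 25.6 CPM and EXP 11.8, 24.0 and 16.6 CPM. On day 4 CTRL gave 15.6, 19.4, 22.2 and 20.3 CPM and EXP 7.69, 14.7 and 19.0 CPM. Groups overlapped on both later days and neither estimate was called (−0.15, SE 0.38, and −0.49, SE 0.36). Among the high-side libraries of day 1 the estimates were −0.72 for Hoxc8 (adjusted p = 0.06777), −1.28 for Hoxd8 (adjusted p = 0.03071) and −1.60 for Hoxd9 (adjusted p = 0.04419). Among the low-side libraries of day 4 the Hoxd8 estimate was −0.62 (adjusted p = 0.3665).

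**Figure D3:**
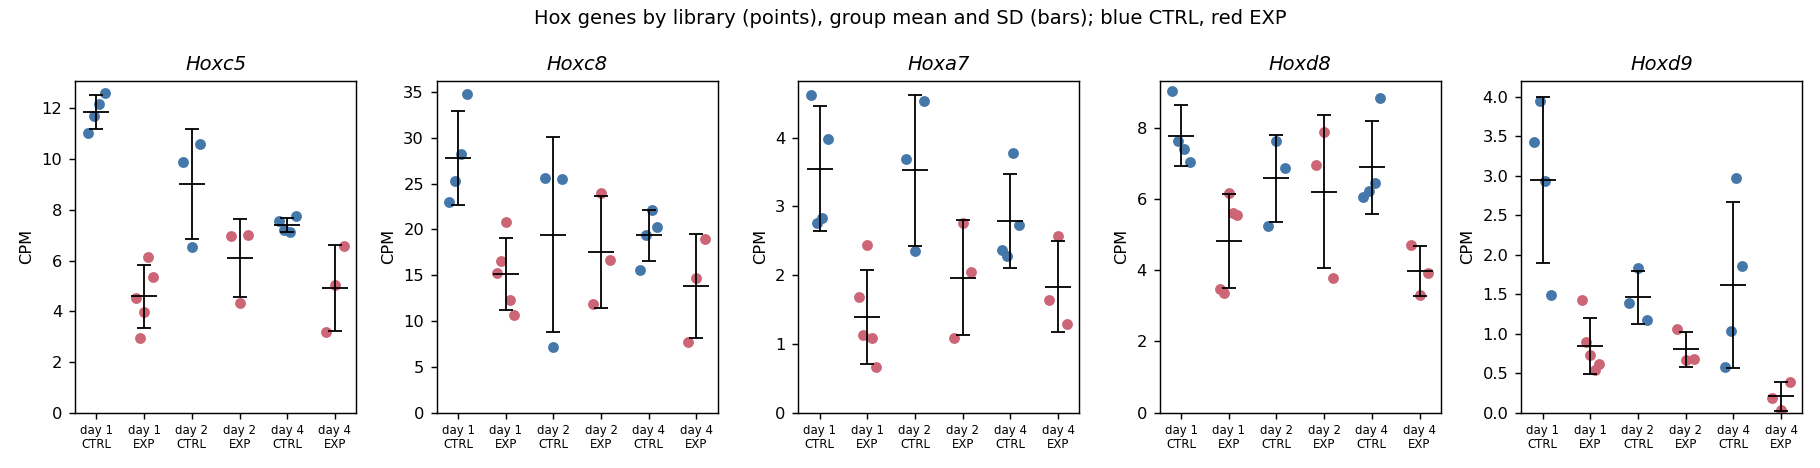
CPM of Hoxc5, Hoxc8, Hoxa7, Hoxd8 and Hoxd9 in each library (points, blue CTRL and red EXP) by day and group, with the group mean and SD as bars. On day 1 the 5 EXP libraries lie below the 4 CTRL libraries in each of the 5 panels, while on day 2 only Hoxd9 shows no overlap.

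Upstream sequence was at hand for 3 of the 6 called genes, Hoxa7, Hoxd8 and Hoxd9, from RefSeq on GRCm38.p6, and is shown because these genes moved together on day 1. The stretches are Hoxa7 chr6:52218712-52218823 on the minus strand (112 bases ending 139 bases before the RefSeq start), Hoxd8 chr2:74704365-74704614 on the plus strand (250 bases ending 1 base before it) and Hoxd9 chr2:74697513-74697726 on the plus strand (214 bases ending 37 bases before it). Bases were left out from the place where the sequence first matched a GENCODE M21 transcript of the same gene. Exons of other genes were not checked. The RefSeq start of Hoxa7, from which its distances are counted, was not found in an M21 transcript of that gene. Each stretch is written 5′ to 3′ with motif matches in capitals.
Hoxa7: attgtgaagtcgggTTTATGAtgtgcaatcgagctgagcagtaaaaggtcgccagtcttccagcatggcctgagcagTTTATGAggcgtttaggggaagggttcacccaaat
Hoxd8: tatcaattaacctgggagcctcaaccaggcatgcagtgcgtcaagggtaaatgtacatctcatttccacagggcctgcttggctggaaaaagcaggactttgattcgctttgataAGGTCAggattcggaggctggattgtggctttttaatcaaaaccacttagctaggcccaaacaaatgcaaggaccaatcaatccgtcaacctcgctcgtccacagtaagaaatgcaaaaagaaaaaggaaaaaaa
Hoxd9: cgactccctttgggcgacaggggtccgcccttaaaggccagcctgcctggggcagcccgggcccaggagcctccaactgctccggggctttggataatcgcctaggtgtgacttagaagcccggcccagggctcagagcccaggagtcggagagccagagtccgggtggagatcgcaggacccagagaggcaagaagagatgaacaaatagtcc

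A set of 5 motifs was searched on both strands, and the following shares of 32851 RefSeq windows of 250 bases hold each: the HOX-PBX motif TGATNNAT (7.68%), the MEIS or PREP motif TGACAG (15.9%), TATAAA (12.4%), the nuclear receptor half-site AGGTCA (14.02%) and the CDX motif TTTATGA (3.35%). The Hoxa7 stretch holds the CDX motif at 2 places, 236 to 230 and 173 to 167 bases before the start. The Hoxd8 stretch holds the nuclear receptor half-site once, 135 to 130 bases before the start, and the Hoxd9 stretch holds none of the 5. GC content was 54.8%, 44.4% and 65.2% over the whole 250 bases before the starts of Hoxa7, Hoxd8 and Hoxd9, against a median of 52.4% over all windows. Those 250 bases include the bases left out of the Hoxa7 and Hoxd9 stretches. These are descriptions of the letters alone.

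Hoxc4 and Hoxc6, which flank Hoxc5, had lower means in EXP on each day but were not called. Hoxc6 measured 7.33, 4.66, 6.65 and 4.17 CPM in CTRL and 1.82, 3.67, 5.30, 1.75 and 4.08 CPM in EXP on day 1 (−0.78, SE 0.32, adjusted p = 0.07544). It measured 4.63, 3.13 and 5.70 against 1.45, 3.26 and 3.03 CPM on day 2, and 3.29, 4.89, 3.73 and 4.80 against 3.14, 2.19 and 2.82 CPM on day 4. Only the day 4 groups did not overlap. Hoxc4 measured 3.25, 2.41, 4.76 and 3.94 CPM in CTRL and 0.873, 1.33, 2.32, 3.12 and 2.33 CPM in EXP on day 1 (−0.85, SE 0.36, adjusted p = 0.08710), and it passed the threshold among the high-side libraries of that day (−1.70, adjusted p = 0.04998). On day 2 it measured 3.23, 3.39 and 4.09 against 2.01, 1.38 and 1.44 CPM, the one day without overlap (−1.15, SE 0.45, adjusted p = 0.09854). On day 4 it measured 4.64, 1.93, 2.22 and 1.86 against 2.71, 1.08 and 1.46 CPM.

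Hoxa5, a gene of neck and upper thoracic levels, was near 1 CPM or below throughout. It measured 0.947, 1.23, 0.823 and 0.268 CPM in CTRL and 1.19, 0.606, 0.835, 0.382 and 0.182 CPM in EXP on day 1, fully interleaved. On day 2 it measured 1.09, 1.25 and 0.180 against 0.165, 0.0393 and 0.341 CPM (−2.17, SE 0.85, adjusted p = 0.09468), with 1 CTRL library as low as EXP. On day 4 it measured 0.242, 0.172, 0.796 and 0.692 against 0.161, 0.139 and 0.143 CPM, without overlap and without a call (−1.66, SE 0.82, adjusted p = 0.1484).

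The genes of groups 9 and 10 and of cluster B varied widely among libraries of the same group. Hoxc9, of lower thoracic levels, ranged from 2.18 to 3.01 CPM in the CTRL libraries of day 1, but in the EXP libraries of that day it was 1.40, 2.91, 1.16, 0.159 and 0.328 CPM. On day 2 it was 2.14, 0 and 2.83 CPM in CTRL and 0.396, 1.61 and 1.02 CPM in EXP, and on day 4 it was 0.193, 0.729, 2.22 and 2.12 CPM in CTRL and 0.134, 2.43 and 2.11 CPM in EXP. It was called on no day (−1.13, SE 0.88, −0.72, SE 1.10, and 0.23, SE 1.01). Hoxa9 likewise gave 1.19, 0, 1.36 and 0.689 CPM in CTRL and 0.140, 0.0404, 0.218, 0.0636 and 0.510 CPM in EXP on day 1, 1.49, 0 and 1.17 against 0.165, 0.904 and 0.341 CPM on day 2, and 1.02, 0.257, 0.545 and 0.779 against 0, 0.625 and 0.214 CPM on day 4. The groups overlapped on each day, and no estimate was called (−2.04, SE 1.04, on day 1). Genes of groups 9 to 13 together made up 1.44% of the Hox CPM in EXP 1 of day 4 and 12.1% in EXP 2 of the same group.

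Hoxc10, of lumbar and hindlimb levels, was detected above 3 counts in 4 libraries alone. These were CTRL 1 and CTRL 3 of day 2 (13 and 37 counts, 0.647 and 1.66 CPM) and EXP 2 and EXP 3 of day 4 (20 and 6 counts, 0.694 and 0.214 CPM). CTRL 3 and EXP 2 of day 1 and EXP 2 of day 2 held 3, 1 and 1 counts, and the other 15 libraries held none. On day 2 its 50 counts in CTRL stood against 1 count in EXP, a ratio of 66.8 with an exact 95% interval of 11.4 to 2689 for counting error only, and the edgeR adjusted p was 0.04985 although CTRL 2 had no count. On day 4 the mean of 0.303 CPM in EXP was at least 2.29-fold higher than the floor of 3 counts per library in the CTRL libraries, which all had none (adjusted p = 0.03898, and 0.3295 among the low-side libraries). Setting Hoxc10 to that bound left the day 4 median of the 13 genes at −0.60. The day 2 call held in the fit without CTRL 2 and in no other leave-one-out fit (adjusted p up to 0.1827), and the day 4 call held without EXP 1 or without EXP 3 and in no other (adjusted p up to 0.1858).

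The counts by library show the same few libraries recurring. Hoxa10, also of group 10, had 9 counts in CTRL 1 of day 2, 9 in CTRL 3 of day 2, 9 in EXP 2 of day 4 and 1 in EXP 3 of day 4. These are the 4 libraries in which Hoxc10 exceeded 3 counts, and Hoxa10 had none elsewhere. Hoxd10, of the same group, did not follow these libraries. It had 25 counts in all and at most 6 in any library, with 3 to 6 in each EXP library of day 2. CTRL 2 of day 2, with no count of Hoxa9, Hoxc9, Hoxa10 or Hoxc10, held the most Hoxb5 of any library (29 counts) and 10 counts of Hoxb6. EXP 1 of day 4, with no Hoxa9 and 5 counts of Hoxc9, held the most Hoxb6 (18 counts) and Hoxb7 (29 counts) and 10 counts of Hoxb5. Few Hoxa9 and Hoxc9 counts did not go with many B counts throughout. EXP 4 of day 1, with 2 counts of Hoxa9 and 5 of Hoxc9, held 4 of Hoxb5 and 3 of Hoxb6. EXP 5 of day 1, with 14 counts of Hoxa9, held 11 of Hoxb5. Summed over cluster B, CTRL 2 of day 2 and EXP 1 of day 4 held 53 and 84 counts. CTRL 3 of day 2 and EXP 2 of day 4, with the most Hoxc10, held 42 and 40. Hoxb7 and Hoxb4, the 2 tested B genes, were called on no day, and Hoxb7 was at 0 in 10 of 22 libraries. The position along the back of each piece of skin is not given in the sources used here, and whether it moves with these counts was not tested.

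**Figure D4:**
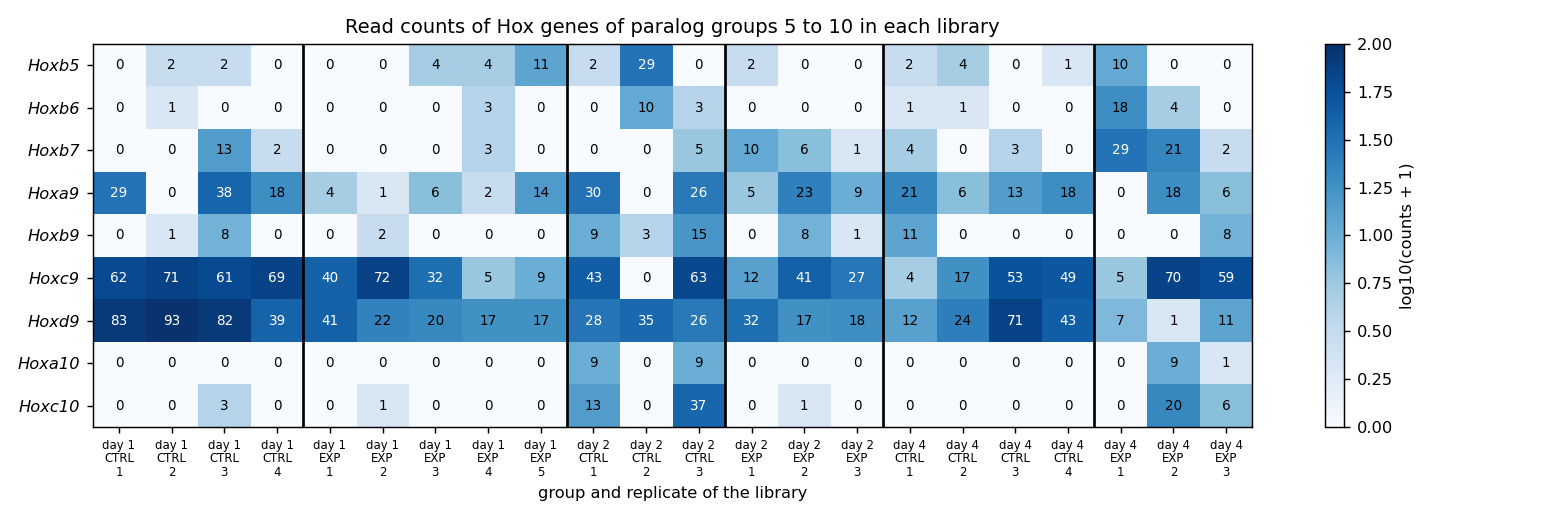
Raw read counts of 9 Hox genes of paralog groups 5 to 10 (rows) in each of the 22 libraries (columns, by group and replicate), coloured by log10 of counts plus 1. Hoxc10 and Hoxa10 counts sit together in CTRL 1 and 3 of day 2 and EXP 2 and 3 of day 4. The largest Hoxb5 count sits in CTRL 2 of day 2 and the largest Hoxb6 count in EXP 1 of day 4. Hoxd10, also of group 10, is not shown.

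The expander effect differed between days for 1 of the 13 genes, Hoxc10 (joint test of the differences between days, adjusted p = 0.02776), against 8.82% of all genes. Because Hoxc10 passed the filter only through groups in which it was high, that call is not independent of the selection. That call was lost without CTRL 3 or EXP 1 or EXP 3 of day 2 or EXP 2 of day 4. For Hoxc5 and Hoxd9 the same test gave adjusted p = 0.1920 and 0.2292, so their larger estimates on day 1 and on day 4 are not shown to differ from those on other days. Over the days after surgery in CTRL, edgeR called 0 of 13 Hox genes, against 0.291% of all genes; 2 had an unadjusted p under 0.05 (Hoxc5 and Hoxc10), and DESeq2 and limma voom called 0. Hoxc5 group means in CTRL were 11.9 ± 0.668, 9.01 ± 2.18 and 7.40 ± 0.291 CPM (SD, n = 4, 3 and 4). Over the days in EXP, edgeR called 0 of 13, against 14.3% of all genes; 4 had an unadjusted p under 0.05 (Hoxa5, Hoxb7, Hoxc10 and Hoxd9), DESeq2 called 2 and limma voom 0.

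Among the TALE genes, whose proteins bind DNA with HOX proteins, 4 of 9 tested were called lower and none higher on day 1, 2 lower on day 2, and 2 lower and 2 higher on day 4. Of all genes, 14.7%, 5.71% and 9.66% were called lower and 13.9%, 7.72% and 12.8% higher on those days. Meis1 had means of 37.8 ± 3.65 CPM in CTRL and 16.7 ± 2.92 CPM in EXP on day 1 (−1.18, SE 0.21, adjusted p = 0.0002973) and 37.2 ± 6.07 against 16.6 ± 7.77 CPM on day 4 (−1.17, SE 0.24, adjusted p = 0.002902). Both calls held with each library of the day left out, but among the low-side libraries of day 4 the estimate of −1.16 had adjusted p = 0.2252. Meis2 was lower on days 1 and 2 (−0.74 and −0.87, adjusted p = 0.005887 and 0.01673), and its day 2 call was lost without CTRL 1, CTRL 2, EXP 1 or EXP 3 (adjusted p up to 0.0816). Its day 1 estimate among the high-side libraries was −0.89 (adjusted p = 0.08196), and Meis1 was the 1 gene of the list called there (−1.25, adjusted p = 0.00886). Pbx4 (−3.28 on day 1, adjusted p = 0.03063), at a mean of 0.155 CPM, was named after its values were seen, and its call was lost in 6 of 9 leave-one-out fits. Pbx3 (1.43, adjusted p = 0.02939, lost without CTRL 3, CTRL 4, EXP 1 or EXP 2) and Pknox2, which encodes a PREP protein (1.15, SE 0.28, adjusted p = 0.007363), were higher on day 4, and the Pknox2 call held in every leave-one-out fit. The median of the 9 genes was −0.24, −0.11 and −0.08, beside 0.02, 0.02 and 0.03 over all genes.

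Of the transcription factors that mark position outside the Hox clusters, those called were all lower in EXP. Of 23 tested of 38 listed, 4 were lower on day 1, 2 on day 2 and 10 on day 4, and none was higher, with medians of −0.20, −0.38 and −1.06. Beside the 14.7%, 5.71% and 9.66% of all genes called lower, the counts of days 1 and 2 were near the background and that of day 4 was above it. Meox2, a homeobox gene of the somite lineage, was 15.6 ± 4.92 CPM in CTRL and 6.66 ± 1.46 CPM in EXP on day 1 (−1.23, SE 0.26, adjusted p = 0.001596) and 22.7 ± 4.98 against 8.17 ± 2.59 CPM on day 2 (−1.48, SE 0.32, adjusted p = 0.005239), in every leave-one-out fit. Its relative Meox1, named after its values were seen at a mean of 0.594 CPM, was lower on the same days (−3.56 and −3.62, adjusted p = 0.006957 and 0.03480). Its day 2 call was lost without CTRL 1, CTRL 2, EXP 1 or EXP 2 (adjusted p up to 0.1431). Tbx15, which sets the dorsal coat pattern, was lower on day 1 (−0.64, adjusted p = 0.01158, and 0.05222 without CTRL 1), as was Prrx1, a marker of limb and trunk mesenchyme (−0.56, adjusted p = 0.04069, and up to 0.1201 with 1 library left out). Tbx15 was lower on day 4 too (−0.77, adjusted p = 0.01407), named there after its values were seen. That call held in every day 4 leave-one-out fit but was lost with library totals in place of TMM. On day 4 Emx2, which is needed to form the shoulder blade, was 6.89 ± 3.65 CPM in CTRL and 1.96 ± 1.16 CPM in EXP (−1.82, SE 0.44, adjusted p = 0.006725). Twist1, a factor of dermal mesenchyme, was 22.6 ± 7.998 against 8.85 ± 1.66 CPM (−1.35, SE 0.35, adjusted p = 0.0106), and Foxf1, of visceral mesoderm, 2.76 ± 2.32 against 0.578 ± 0.393 CPM (−2.23, SE 0.63, adjusted p = 0.01692). The expander effect differed between days for Twist1 and for Msx2, named after its values were seen.

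The day 4 calls of these factors depended on which libraries were kept. Emx2 was called in each day 4 leave-one-out fit, Twist1 was lost without EXP 1 (adjusted p = 0.06468) and Foxf1 without CTRL 4 or EXP 2 (adjusted p up to 0.08722). The count of 10 ranged from 5 to 9 over those fits, and it was 2 with day 4 libraries fitted alone. Among the low-side libraries of day 4 it was 0, in a fit of 2 CTRL against 3 EXP libraries that called 0.0057% of all genes, and the day 4 counts of the other lists were 0 there too. Among the high-side libraries of day 1 the day 1 count was 0, in a fit that called 12.2% of all genes, and the Meox2 estimate there was −1.02 (adjusted p = 0.06665). Pitx1, Alx1, Dlx3, Hand2, Barx1, Pax3 and Pax7, which mark hindlimb, face, heart and neural crest or muscle, were at 3 counts or fewer in every library.

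Of 19 retinoic acid genes tested, 3 were lower and 1 higher on day 1, 3 and 1 on day 2, and 4 and 3 on day 4. The share called was below the 28.6% of all genes on day 1 and above the 13.4% and 22.5% of all genes on days 2 and 4. The receptor Rarg was lower on each day, at 42.2 ± 10.1 against 20.4 ± 5.29 CPM on day 1 (−1.04, SE 0.21, adjusted p = 0.0009684), 55.5 ± 11.9 against 25.1 ± 2.16 CPM on day 2 and 47.4 ± 8.10 against 24.8 ± 6.89 CPM on day 4. The day 4 call, named after its values were seen, was lost without EXP 2 (adjusted p = 0.06704), and the call held in every leave-one-out fit of days 1 and 2. Rarb was lower on days 1 and 2 and Rxrg on all 3 days (−2.15, −3.43 and −2.52), each at under 8 CPM in every group. Of the enzymes that make retinoic acid, Aldh1a3 was 0.530 ± 0.564 CPM in CTRL and 4.06 ± 2.47 CPM in EXP on day 1 and 0.954 ± 1.07 against 29.9 ± 15.9 CPM on day 4 (4.98, SE 1.01, adjusted p = 0.002883), and Aldh1a2 was 0.182 ± 0.103 against 34.1 ± 49.6 CPM on day 4 (7.49, SE 1.38, adjusted p = 0.001649). Without EXP 1 the Aldh1a2 estimate was 4.92 (adjusted p = 0.01627). Cyp26b1, which breaks it down, and Dhrs3, which reduces its precursor, were lower on day 4 (−1.22 and −1.05, adjusted p = 0.04205 and 0.03109). The binding protein gene Crabp1 was higher on day 2 (2.43, adjusted p = 0.02705). The day 4 calls of Aldh1a3 and Aldh1a2 held in every leave-one-out fit, and those of Rarb, Rxrg, Crabp1, Cyp26b1 and Dhrs3 and the day 1 call of Aldh1a3 were each lost in at least 1 (adjusted p up to 0.1763). Among the high-side libraries of day 1 the estimates were −0.82 for Rarb and −1.43 for Rxrg (adjusted p = 0.5136 and 0.249).

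Of 21 Polycomb genes tested, 3 were lower and 3 higher on day 1, 1 and 1 on day 2, and 4 lower and none higher on day 4. Against 28.6%, 13.4% and 22.5% of all genes, the list was called no more often than genes at large on any day. Mtf2, an accessory subunit of the complex that methylates histone H3 lysine 27, was 6.25 ± 1.25 CPM in CTRL and 22.7 ± 4.03 CPM in EXP on day 1 (1.86, SE 0.24, adjusted p = 2.035e-05) and 8.84 ± 1.23 against 19.8 ± 2.34 CPM on day 2. Jarid2, of the same complex, and Rnf2, a ubiquitin ligase of the other main complex, were higher on day 1 (1.21 and 0.51), while Ring1, the paralog of Rnf2, was lower on each day (−1.29, −1.14 and −0.84). Cbx6 (−1.32) and Ezh1 (−0.55) were lower on day 1, and Eed (−0.90), Phc3 (−0.65) and Rnf2 (−0.53, named after its values were seen) on day 4. The Mtf2, Jarid2, Rnf2, Cbx6 and Ring1 calls of day 1 held with each library left out, that of Ezh1 was lost in 5 of 9 such fits (adjusted p up to 0.1544), and every day 4 call of the list was lost in at least 1 leave-one-out fit (adjusted p up to 0.2374). Among the high-side libraries of day 1 the estimates were −0.77 for Ezh1 and 0.46 for Rnf2 (adjusted p = 0.1402 and 0.1883). The effect differed between days for Eed, Mtf2, Rnf2 and Cbx6.

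Of 13 Trithorax and H3K27 demethylase genes tested, 1 was lower and 2 higher on day 1, 2 and 2 on day 2, and 2 lower and none higher on day 4. The share called was below the 28.6% and 22.5% of all genes on days 1 and 4 and above the 13.4% on day 2. Wdr5, a core subunit of the H3K4 methyltransferases, was 22.8 ± 1.63 CPM in CTRL and 43.6 ± 5.67 CPM in EXP on day 1 (0.93, SE 0.13, adjusted p = 3.15e-05), and Kmt2a, a methyltransferase known for keeping Hox genes on, was 14.1 ± 1.99 against 24.7 ± 6.98 CPM (0.81, SE 0.20, adjusted p = 0.004337). Both held with each day 1 library left out. Among the high-side libraries of that day Wdr5 was called (1.06, adjusted p = 0.01424) and Kmt2a was not (0.52, adjusted p = 0.2021). Kmt2c was lower on all 3 days (−0.58, −0.76 and −0.66), the demethylase Kdm6b on day 2 (−0.83) and Kdm6a on day 4 (−0.74), and Ash2l (0.71) and Wdr5 (0.48) were higher on day 2. These Kmt2c, Kdm6b, Kdm6a, Ash2l and Wdr5 calls were each lost in at least 1 leave-one-out fit (adjusted p up to 0.1847). The effect differed between days for Kmt2a.

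**Figure D5:**
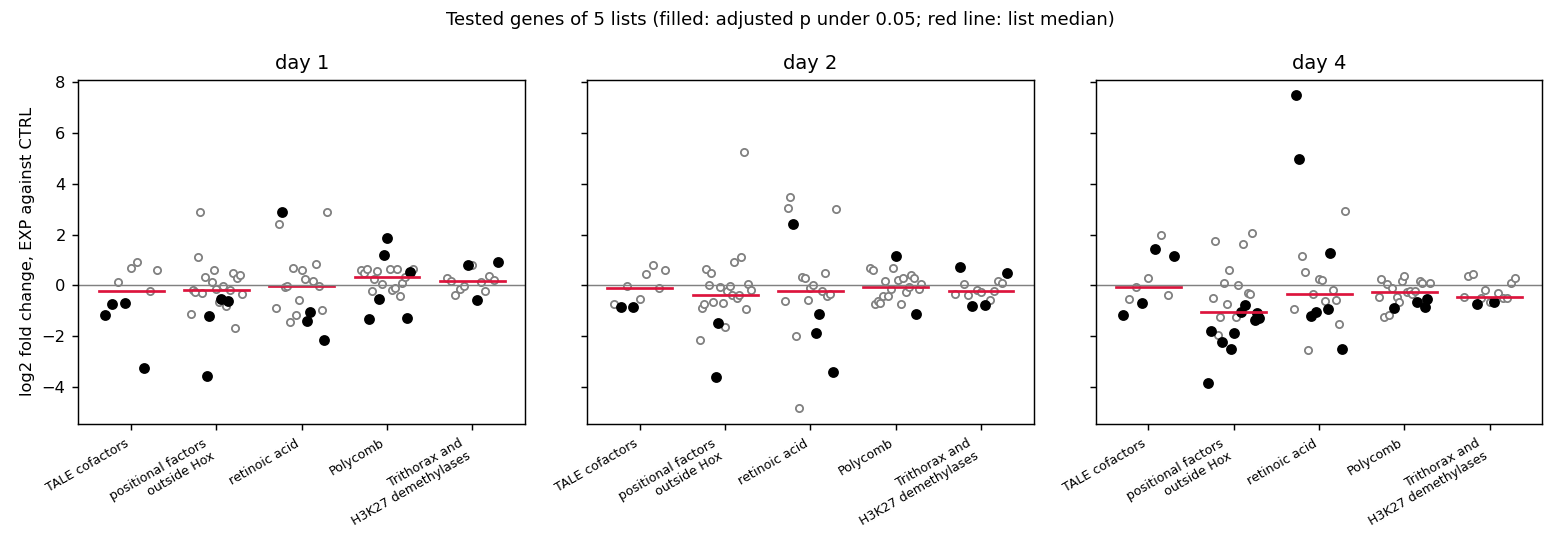
Log2 fold change of EXP against CTRL (y axis) for each tested gene of 5 lists (x axis) on days 1, 2 and 4, with filled points for adjusted p under 0.05 and a red line at each list's median. On day 4 the positional factors outside the Hox clusters have 10 filled points, all below 0, and a median of −1.06, while the retinoic acid list has filled points on both sides.

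Of 17 noncoding genes of the Hox clusters in the table, 3 were tested. Haglr, a noncoding gene of cluster D, was lower on day 4 (−2.93, SE 0.94, adjusted p = 0.03109) at a mean of 0.327 CPM, named after its values were seen, a call lost without CTRL 4, EXP 1 or EXP 2. Hotair and Hottip were at 3 counts or fewer everywhere, as were all 8 genes of the Cdx, Evx, Gsx and Pdx1 list.

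Summed levels of marker lists differed between the arms as well. The fibroblast markers summed to 211013 to 284059 CPM in CTRL and 93658 to 171442 CPM in EXP on day 1, without overlap, and 4 of 9 were called lower and 1 higher, against 14.7% and 13.9% of all genes. On day 2 they summed to 328792 to 408487 CPM in CTRL and 68257 to 171285 CPM in EXP, again without overlap. Adipocyte markers summed to 0.545 to 2.27 CPM in CTRL and 43.5 to 501.8 CPM in EXP on day 4, where 5 of 5 tested were higher, against 12.8% of all genes, and to 0.249 to 3.13 CPM against 8.02 to 88.9 CPM on day 2. Dermal papilla markers, of which Crabp1 is one, summed to 85.4 to 136.7 CPM in CTRL and 304 to 646 CPM in EXP on day 2, with 2 of 7 tested called higher, against 7.72% of all genes. Crabp1 made up most of these sums, with means of 65.7 CPM in CTRL and 353 CPM in EXP. The median log2 fold change of the 7 tested was −0.06. The day 2 sums also did not overlap for keratinocyte, leukocyte and skeletal muscle markers, lower in EXP, and for endothelial markers, higher in EXP. Among leukocyte markers, though, 0 of 7 tested were called lower and 2 higher, with a median log2 fold change of 0.27. The medians were 0.27 for 3 skeletal muscle and −2.24 for 11 keratinocyte markers tested, with 1 called lower in each list. For 7 endothelial markers tested it was 1.80, with 1 called higher. Of all genes, 5.71% were called lower on day 2. Hair shaft and matrix markers summed to at most 0.249 CPM in any library, with 10 of 12 at 3 counts or fewer everywhere. The part of these marker differences in the Hox results and in those of the other lists was not tested.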

How the data were processed

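The deposited table holds raw counts per Ensembl gene for 22 libraries, made by the authors from 2x150 base reads of low-input RNA libraries. Per the submitters' processing notes, reads were trimmed with Trimmomatic and the genome build was mm39; the aligner, counter, annotation and strand setting are not given in the sources used here. Nothing in the labels ties each library to a separate mouse, so p-values measure the spread between these samples. Symbols came from GENCODE M21, which names 52081 of 55414 rows. Counts were tested with edgeR 4.0.16 in R 4.3.3: TMM scaling, filterByExpr with a minimum count of 10, robust quasi-likelihood fit of 6 group means (16 residual degrees of freedom) and Benjamini-Hochberg adjustment over 17554 genes. DESeq2 1.42.0, limma 3.58.1 (voom), other scalings, no filter, a replicate block and left-out libraries were alternatives. Exon lengths were the union of M21 exons. The edgeR settings were tested on simulated data. The Hox members and all lists were chosen with earlier results of these data known. Values in every library are given for Hox genes called on some day or for a difference between days and for the 10 with the highest mean CPM; from each other list, up to 3 called genes per direction and day with the largest log2 fold change and a mean of at least 1 CPM. Some members of the other lists are counted but not reported here by name.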

Additional observations from a re-analysis of the deposited data

Results flagged for a closer look

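In groups of 4 or 5 libraries, 54 sets of values of named Hox genes and of Hox sums were searched for a library that stands apart by Dixon's criterion, which chance meets in about 5% of groups, or 2.7 of 54; 5 were found. Hoxd8 was 8.83 CPM in CTRL 4 of day 4, with the nearest other library at 6.45 CPM. Hoxc4 was 4.64 CPM in CTRL 1 of day 4, with the nearest other at 2.22 CPM. In EXP 3 of day 1 the summed Hox CPM was 44.3 and the sum over groups 4 to 8 was 42.1, with the nearest others at 34.3 and 31.2. The sum over groups 9 to 13 was lowest in CTRL 4 of day 1, at 4.94 CPM beside 6.87 CPM. The expander effect on Hoxc10 differed between days, with an adjusted p of 0.02776 from edgeR's joint test, on counts found in 7 of 22 libraries. Hoxc10 passed the filter on low counts only through groups in which it was high.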

How the results depend on the processing

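No called Hox estimate changed direction under any alternative run. Hoxc5, Hoxa7 and Hoxd9 on day 1 were called under 9 of 9 alternatives fitted with all day 1 libraries and in 9 of 9 leave-one-out fits, and Hoxd9 on day 4 under 8 of 9 and in 7 of 7. The other calls held less often. Hoxc8 on day 1 was called under 6 of 9 alternatives, and Hoxd8 under 5 of 9 on day 1 and 2 of 9 on day 4. Hoxc10 was called under 5 of 9 on day 2 and 4 of 9 on day 4. The day 1 count of 5 was 3 with library totals in place of TMM, 3 without the filter on low counts, 3 with an absolute log2 fold change of at least 1 in addition, and 3 to 6 with single libraries left out. The day 2 count of 1 was 0 with DESeq2, without the filter and with the Rnf10 split as a covariate, 3 with limma voom and 2 with day 2 libraries alone, and 0 to 1 with single libraries left out. The day 4 count of 3 was 1 with limma voom and with the split as a covariate, 0 with day 4 libraries alone and 0 among its low-side libraries, where 0.0057% of all genes were called (chosen after seeing the data, like the high-side fit of day 1, which called 4), and 1 to 3 with single libraries left out. The count for a difference between days, 1, was 0 with DESeq2 and limma voom and 0 to 1 with single libraries left out. The count over days in EXP, 0, was 1 with library totals, 2 with DESeq2, 1 with the split as a covariate and 0 to 1 with single libraries left out; that in CTRL was 0 throughout. The cause of these changes was not tested.

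Same-numbered libraries did not deviate together on every day (correlations from −0.0664 to 0.1642 over 10 pairs), so the numbers were not taken as pairs. With the replicate block the counts were 4 on day 1 (Hoxc5, Hoxa7, Hoxd9 and Hoxc4), 1 on day 2 (Hoxc4), 1 on day 4 (Hoxd9) and 0 for a difference between days, so Hoxc8 and Hoxd8 on day 1, Hoxc10 on day 2, and Hoxd8 and Hoxc10 on day 4 were not called, and the day 4 count of 10 positional factors was 5; the block is nested in day, so the changes over days could not be fitted with it. Library totals without TMM moved the median of all genes to 0.21, 0.49 and 0.36 on days 1, 2 and 4, with Hox medians of −0.99, −0.38 and −0.28. At 3 counts, genes under about 0.1 CPM cannot be told from absent.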
